A study of Mus musculus with 6 samples.

Results

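The cytochrome P450 genes of families 1 to 3 were examined in whole livers of 3 TLR3-/- and 3 TLR3wt mice, 1 array per mouse. The genes were found by name: a probe set had to carry exactly 1 gene symbol in the array annotation, starting with Cyp1, Cyp2 or Cyp3 and then a letter, with pseudogenes left out. This gave 53 genes, each with 1 probe set. Of these, 21 stood at 5, the lowest value of the table, on all 6 arrays and were left out, so that 32 genes of the 10347 measured genes in the series are described here. The 32 fall into 11 subfamilies: 10 Cyp2c, 7 Cyp2d, 4 Cyp3a, 3 Cyp2j and 2 Cyp2b genes, and 1 gene each of Cyp1a, Cyp2a, Cyp2e, Cyp2f, Cyp2r and Cyp2u.

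All mice were 3 months old, received no treatment and were bred in house under specific-pathogen-free conditions. The TLR3wt animals were C57Bl/6 mice. The TLR3-/- animals are labelled as lacking both copies of Tlr3, which encodes an endosomal receptor for double-stranded RNA. How the allele was made, the sex of the mice and, in their own sample labels, the strain of the TLR3-/- animals are not given in the sources used here. Each value is a log2 RMA signal, a background-corrected and quantile-normalised array brightness, and a difference of 1 on this scale is a doubling. The comparison asks which liver transcripts differ between untreated TLR3-/- and TLR3wt mice. Effects of the Tlr3 genotype and of any difference in strain background or breeding line cannot be told apart here.

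P450 enzymes are haem proteins of the endoplasmic reticulum that insert an oxygen atom into their substrates, with electrons passed on from NADPH by P450 reductase. Families 1 to 3 hold most of the drug- and pollutant-metabolising enzymes of hepatocytes and also oxidise steroids, bile acids and arachidonic acid. Many of their genes are induced through the receptors AhR, CAR or PXR, several differ between the sexes, and most are expressed around the central vein, with Cyp2f2 a periportal exception. The genes of a subfamily often lie side by side and are similar enough that probes may read more than 1 of them.

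Tlr3 itself stood at the floor of 5 in all 6 livers, so its signal cannot check the genotype labels. The mean of 9 measured hepatocyte markers, which are near the top of the array's range, lay between 12.41 and 12.44 in TLR3wt and between 12.38 and 12.42 in TLR3-/- livers. Single markers separated the groups, with Tat (-0.39) and Apoa1 (-0.10) lower and Apoc3 (0.12) and Hpd (0.13) higher in TLR3-/- livers, none past limma's adjusted threshold. Among all measured genes, 15.1% were higher and 7.62% lower without overlap. TLR3wt replicate 3 stood apart: the mean of 19 acute-phase genes, relative to the TLR3wt average, was 0.69 in this liver, -0.44 and -0.25 in TLR3wt replicates 1 and 2, and -0.81, -0.61 and -0.61 in the TLR3-/- livers. Of the 19 acute-phase genes, 18 were lower in TLR3-/- livers, with a median log2 difference of -0.28. At an unadjusted limma p under 0.05, 5 of them were lower, against 5.56% of all measured genes, and 0 passed the adjusted threshold. Of the 32 P450 genes, 15 had their lowest value of all 6 livers in TLR3wt replicate 3. This liver was the lowest for 24% of all measured genes. Values without this mouse are therefore given beside the results that move with it.

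Sequences before the start sites are shown for neighbouring Cyp2c genes that lay on opposite sides of 0, and for Cyp2d26 and Cyp3a25, whose differences were among the largest relative to their standard errors. They cover the 250 bases ahead of the annotated start, 5′ to 3′ on the gene's strand, from RefSeq on GRCm38.p6, which held such a window for 26 of the 32 genes but none for Cyp2c23, Cyp2c54, Cyp2d13, Cyp2d22, Cyp2d34 and Cyp2u1. Capitals mark CAAAGTNCA, letters resembling the core bound by the hepatocyte factor HNF4. The windows of Cyp2c37 (chr19:39992174-39992423, plus strand) and Cyp2c50 (chr19:40089429-40089678, plus strand) belong to genes with higher signal in TLR3-/- livers.
Cyp2c37: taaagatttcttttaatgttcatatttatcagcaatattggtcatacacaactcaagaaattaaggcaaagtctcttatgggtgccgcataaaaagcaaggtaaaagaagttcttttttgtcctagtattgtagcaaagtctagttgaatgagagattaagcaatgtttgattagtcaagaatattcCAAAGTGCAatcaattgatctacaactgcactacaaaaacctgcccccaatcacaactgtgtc
Cyp2c50: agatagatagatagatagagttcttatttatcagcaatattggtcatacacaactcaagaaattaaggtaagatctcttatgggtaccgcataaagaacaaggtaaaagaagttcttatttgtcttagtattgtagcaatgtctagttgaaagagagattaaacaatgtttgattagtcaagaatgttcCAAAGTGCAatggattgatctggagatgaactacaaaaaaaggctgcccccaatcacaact
Those of Cyp2c38 (chr19:39463076-39463325, minus strand), Cyp2c67 (chr19:39649043-39649292, minus strand) and Cyp2c68 (chr19:39741102-39741351, minus strand) belong to neighbouring genes with lower or equal signal.
Cyp2c38: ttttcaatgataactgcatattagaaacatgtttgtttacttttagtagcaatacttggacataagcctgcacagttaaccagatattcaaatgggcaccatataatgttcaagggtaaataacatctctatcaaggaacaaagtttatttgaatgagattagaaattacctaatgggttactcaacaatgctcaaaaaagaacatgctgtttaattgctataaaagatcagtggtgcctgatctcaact
Cyp2c67: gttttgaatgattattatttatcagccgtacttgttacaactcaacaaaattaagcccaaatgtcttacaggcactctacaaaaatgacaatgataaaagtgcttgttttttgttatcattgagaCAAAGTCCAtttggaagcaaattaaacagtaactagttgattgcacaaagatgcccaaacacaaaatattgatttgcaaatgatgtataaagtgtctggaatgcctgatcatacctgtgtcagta
Cyp2c68: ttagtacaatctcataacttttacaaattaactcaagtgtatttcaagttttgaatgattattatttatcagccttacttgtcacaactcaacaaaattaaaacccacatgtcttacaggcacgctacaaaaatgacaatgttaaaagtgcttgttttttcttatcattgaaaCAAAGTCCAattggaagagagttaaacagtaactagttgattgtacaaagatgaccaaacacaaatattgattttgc
Cyp2d26 (chr15:82794246-82794495, minus strand) and Cyp3a25 (chr5:146009619-146009868, minus strand) were higher in TLR3-/- livers.
Cyp2d26: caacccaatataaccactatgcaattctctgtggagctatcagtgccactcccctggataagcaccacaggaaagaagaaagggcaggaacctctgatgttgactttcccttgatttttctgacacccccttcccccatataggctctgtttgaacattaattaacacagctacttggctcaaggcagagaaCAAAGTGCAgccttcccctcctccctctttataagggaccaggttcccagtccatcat
Cyp3a25: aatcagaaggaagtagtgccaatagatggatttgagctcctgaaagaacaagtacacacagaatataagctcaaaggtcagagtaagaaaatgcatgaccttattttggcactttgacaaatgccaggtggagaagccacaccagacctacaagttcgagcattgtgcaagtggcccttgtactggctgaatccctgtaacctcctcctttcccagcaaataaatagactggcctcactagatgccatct

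Over a local alignment of 231 columns the Cyp2c37 and Cyp2c50 windows were identical at 207 (89.6%), and over 201 columns the Cyp2c67 and Cyp2c68 windows were identical at 185 (92%). Between the pairs, Cyp2c37 and Cyp2c67 shared 161 of 253 columns (63.6%). The CAAAGTNCA letters ended 55 bases before the start in Cyp2c37, 53 in Cyp2c50, 117 in Cyp2c67 and 69 in Cyp2c68. Searched on either strand, they were present in 8 of the 26 windows (30.8%) and in 1.21% of 27025 mouse windows of the same length. These letters were picked after the windows had been read. They lay in windows of genes with higher signal (Cyp2c37, Cyp2c50, Cyp2d26) and of genes without it (Cyp2c67, Cyp2c68, Cyp3a11). TATAAA was present in 57.7% of the P450 windows against 13% of all, GCGTG, the core of AhR response elements, in 11.5% against 28.2%, and TTCNNNGAA, a STAT5-like site, in 0 of 26 against 7.18%. All motifs were searched on both strands, and no match overlapped a match of another motif. A match describes the letters in this window.

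No P450 gene of families 1 to 3 passed the test across the whole array, and most of them had slightly higher signal in TLR3-/- livers. With limma, adjusted over 16639 probe sets, 0 of the 32 genes had an adjusted p under 0.05, where 9 of the 10347 measured genes (0.087%) did, and the lowest adjusted p of a P450 gene was 0.0929. An ordinary pooled-variance test called 0 as well, with 10 at an unadjusted p under 0.05. At an unadjusted p under 0.05 limma gave 13 P450 genes (40.6%), against 15.7% of all measured genes. Of these, 11 were higher in TLR3-/- livers (10.1% of all genes) and 2 lower (5.56% of all genes). Leaving out TLR3-/- replicate 3 gave 8 genes, and leaving out TLR3wt replicate 3 gave 10. The share of all measured genes was counted in the main limma fit only, not for the ordinary test or with a mouse left out. Counted over genes above the floor in all livers, the P450 share was 13 of 30, against 16.4% of 9092 genes (10.8% higher and 5.51% lower).

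The log2 difference, TLR3-/- minus TLR3wt, was above 0 in 25 of the 32 genes, against 60.9% of all measured genes, and its median was 0.13 against 0.03. After quantile normalisation once more 23 P450 genes lay above 0, against 5476 of all 10347 measured genes. With arrays centred on their median, 21 P450 genes lay above 0, against 5232 of the 10347. The median was then 0.10 against 0.00 for all genes. In 13 genes all TLR3-/- livers lay above all TLR3wt livers, a pattern found in 15.1% of all measured genes, and in 2 genes all lay below (7.62%). Together these patterns were found in 22.7% of all measured genes. Over the 9092 genes above the floor in all livers they were found in 16.3% and 7.45%, and 63.3% of these genes lay above 0. Of 5338 genes brighter than the median tested probe set, 67.6% lay above 0, with a median of 0.05. The 30 P450 genes among them had 24 above 0 and a median of 0.15. The differences ran from -0.53 for Cyp2c38 to 0.94 for Cyp2c37.

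**Figure D1:**
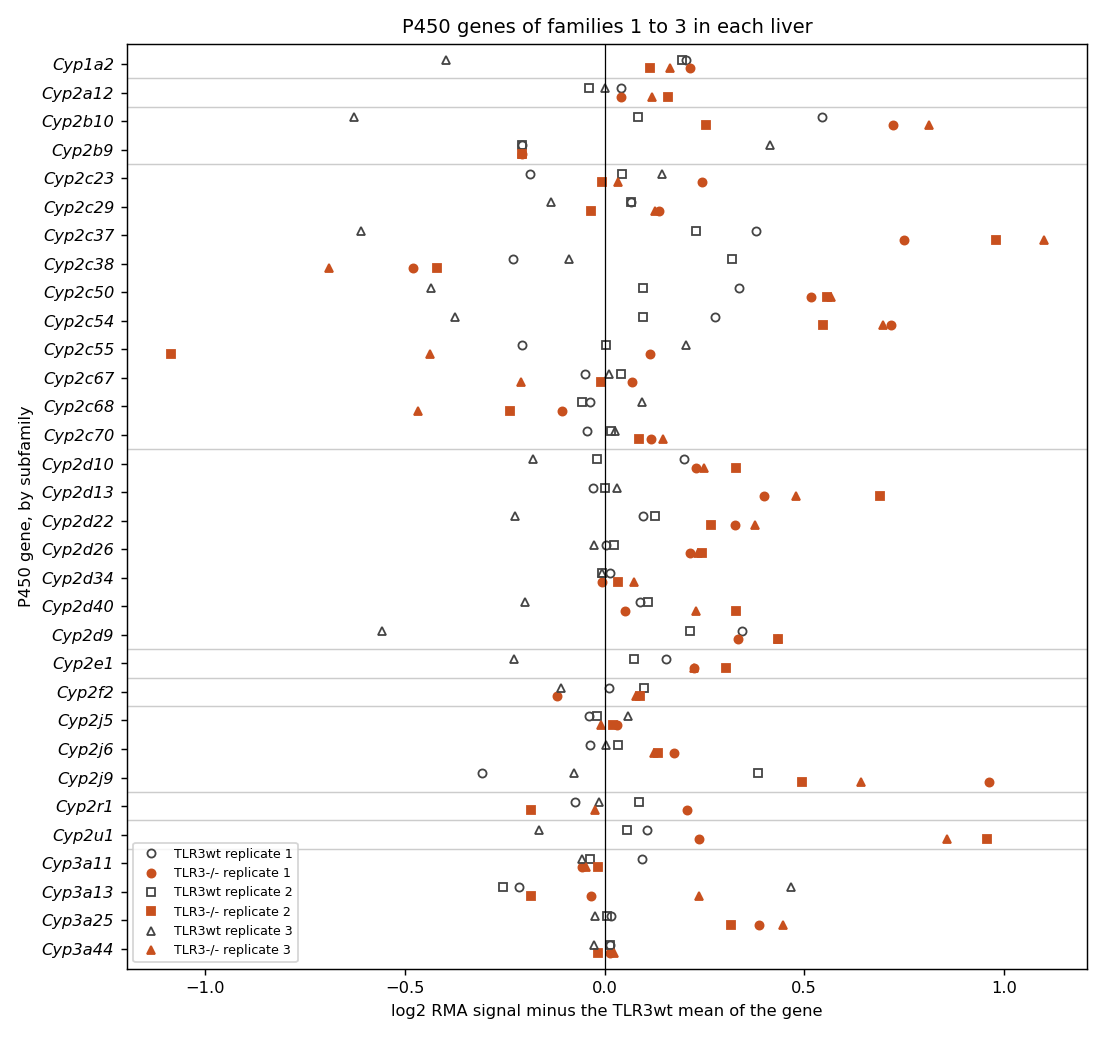
Each row is 1 P450 gene and each symbol 1 liver, open for TLR3wt and filled for TLR3-/-; the horizontal axis is the log2 RMA signal minus the gene's TLR3wt mean. TLR3wt replicate 3 (open triangles) lies to the left in Cyp1a2, Cyp2b10, Cyp2c37, Cyp2d9 and Cyp2e1, and the TLR3-/- symbols lie to the right of all open ones in 13 genes.

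**Figure D2:**
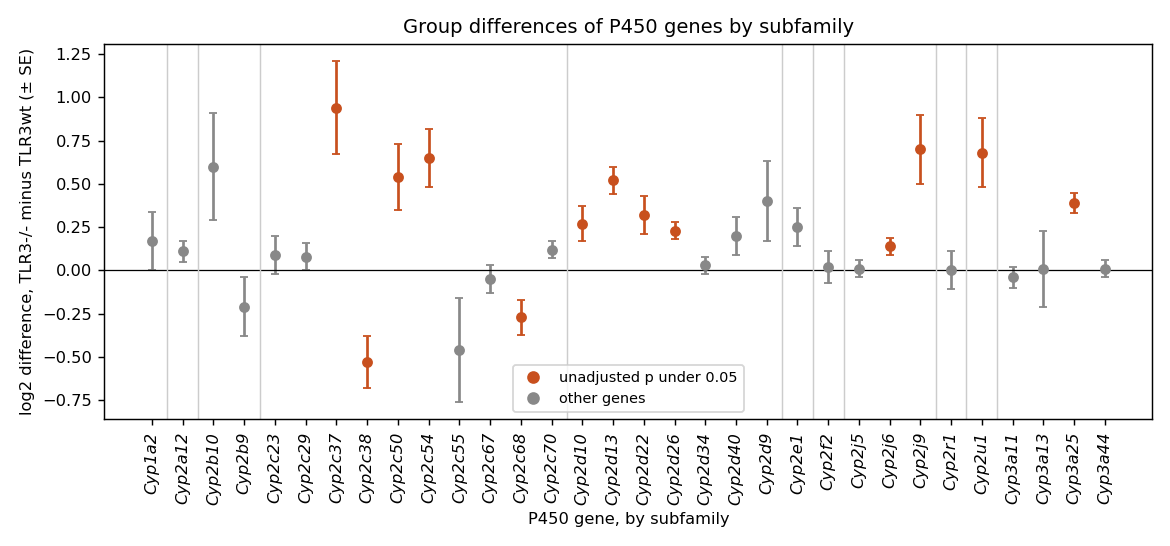
Points are log2 differences (TLR3-/- minus TLR3wt) from limma with standard errors for the 32 P450 genes, grouped by subfamily, 3 livers per group. All 7 Cyp2d points lie above 0, the Cyp2c points range from -0.53 to 0.94, and 3 of the 4 Cyp3a points lie within 0.04 of 0.

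The Cyp2c subfamily, whose liver members oxidise arachidonic acid, drugs and bile acids, held the largest differences in both directions. Of its 10 measured genes, 3 were higher and 2 lower at an unadjusted p under 0.05, and the subfamily median was 0.08. The median was 0.03 without TLR3-/- replicate 1, 0.05 without TLR3wt replicate 1 and 0.13 without TLR3-/- replicate 2. Cyp2c37, an arachidonic acid oxygenase of the liver, had 10.08, 9.93 and 9.09 in the TLR3wt livers and 10.45, 10.68 and 10.80 in the TLR3-/- livers. The groups did not overlap, and TLR3wt replicate 3 was the lowest by far. The difference was 0.94 ± 0.27 (SE), or 1.92-fold (limma adjusted p = 0.212), and 0.64 without that mouse.

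Cyp2c54 and Cyp2c50, close relatives of Cyp2c37, had the same order of TLR3wt livers, with TLR3wt replicate 3 the lowest. Cyp2c54 stood at 10.27, 10.09 and 9.62 in TLR3wt and at 10.71, 10.54 and 10.69 in TLR3-/- livers, a difference of 0.65 ± 0.17 (SE; limma adjusted p = 0.187). Cyp2c50 stood at 10.77, 10.53 and 10.00 against 10.95, 10.99 and 11.00, a difference of 0.54 ± 0.19 (SE; limma adjusted p = 0.279). Again no TLR3-/- value fell within the TLR3wt range, and the TLR3-/- livers were close together. Without TLR3wt replicate 3 the differences were 0.46 and 0.33.

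Cyp2c38 and Cyp2c68 lay the other way. Cyp2c38, another arachidonic acid oxygenase, was 7.27, 7.82 and 7.41 in TLR3wt livers and 7.02, 7.08 and 6.81 in TLR3-/- livers (difference -0.53 ± 0.15 SE, limma adjusted p = 0.219). For Cyp2c68 the values were 9.24, 9.22 and 9.37 against 9.17, 9.04 and 8.81 (difference -0.27 ± 0.10 SE, limma adjusted p = 0.316), and -0.17 without TLR3-/- replicate 3. In both genes the groups did not overlap, and TLR3wt replicate 3 was not the lowest liver.

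The 3 higher Cyp2c genes are neighbours. Along chromosome 19 the order of the measured genes is Cyp2c55, Cyp2c29, Cyp2c38, Cyp2c67, Cyp2c68, Cyp2c37, Cyp2c54, Cyp2c50, Cyp2c70 and Cyp2c23. Cyp2c38, Cyp2c67 and Cyp2c68 had differences of -0.53, -0.05 and -0.27, and the next 3 had 0.94, 0.65 and 0.54. Cyp2c70, which hydroxylates bile acids to muricholic acids in the mouse, was 11.35 to 11.42 in TLR3wt and 11.48 to 11.54 in TLR3-/- livers, a small difference of 0.12 ± 0.05 (SE) without overlap. A probe set shared by Cyp2c67, Cyp2c68 and further Cyp2c genes had a difference of -0.17 ± 0.09 (SE). The deposited values do not show how far probes of these similar genes read each other, which was not tested.

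**Figure D3:**
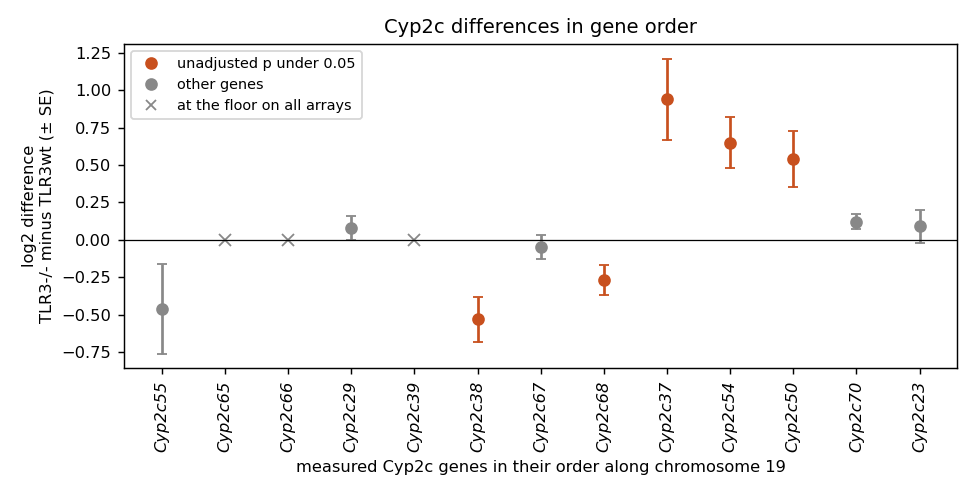
Log2 differences (TLR3-/- minus TLR3wt) with standard errors are drawn for the Cyp2c genes in their order along chromosome 19, evenly spaced; crosses mark 3 genes at the floor on all arrays. Cyp2c38 and Cyp2c68 lie below 0 and the neighbouring Cyp2c37, Cyp2c54 and Cyp2c50 lie at 0.94, 0.65 and 0.54.

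The other Cyp2c genes overlapped between groups. Cyp2c29, an epoxygenase that is also induced through CAR, was 11.79, 11.79 and 11.59 in TLR3wt and 11.86, 11.69 and 11.85 in TLR3-/- livers. Differences were 0.08 for Cyp2c29 (0.01 without TLR3wt replicate 3, the lowest liver), 0.09 for Cyp2c23, -0.05 for Cyp2c67 and -0.46 for Cyp2c55. The Cyp2c55 value came with a wide spread in TLR3-/- livers (7.21, 6.01 and 6.66).

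In the Cyp2d subfamily, which holds steroid hydroxylases and drug-oxidising enzymes, all 7 measured genes had differences above 0, with a median of 0.27. They also did with quantile normalisation, with centred arrays and without any 1 mouse. The limma adjusted threshold was passed by 0 of 7 and the unadjusted one by 4. TLR3wt replicate 3 was the lowest of the 6 livers in 5 of the 7, and the median was 0.18 without it. Cyp2d13 had tight TLR3wt values of 9.55, 9.58 and 9.61 and TLR3-/- values of 9.98, 10.27 and 10.06, a difference of 0.52 ± 0.08 (SE; limma adjusted p = 0.109). Cyp2d26 showed a smaller gap with even less spread, 11.44, 11.46 and 11.41 against 11.65, 11.68 and 11.67 (difference 0.23 ± 0.05 SE, limma adjusted p = 0.154). Neither gene depended on TLR3wt replicate 3, without which the differences were 0.54 and 0.22.

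Cyp2d22, often compared with the human drug-metabolising enzyme CYP2D6, was 9.81, 9.84 and 9.49 in TLR3wt and 10.04, 9.98 and 10.09 in TLR3-/- livers. Its difference of 0.32 ± 0.11 (SE; limma adjusted p = 0.258) became 0.21 without TLR3wt replicate 3. Cyp2d10 was 10.89, 10.67 and 10.51 against 10.92, 11.02 and 10.94, a difference of 0.27 ± 0.10 (SE; limma adjusted p = 0.322), or 0.18 without that mouse. The TLR3wt livers spread over a wider range than the TLR3-/- livers in both genes. Cyp2d9, a male-predominant steroid hydroxylase, had overlapping groups: TLR3wt livers at 10.09, 9.96 and 9.19 and TLR3-/- livers at 10.08, 10.18 and 10.18. Its difference of 0.40 ± 0.23 (SE) was 0.12 without TLR3wt replicate 3. Cyp2d40 differed by 0.20, or 0.10 without TLR3wt replicate 3, again the lowest liver, and Cyp2d34 was at most 5.08 in any liver, next to the floor.

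Of the 4 measured Cyp3a genes, Cyp3a25 had a difference of 0.39 and the other three lay within 0.04 of 0. Cyp3a25, a steroid- and drug-oxidising enzyme, had the smallest p of all the P450 genes. Its values were 11.42, 11.41 and 11.38 in TLR3wt livers and 11.79, 11.72 and 11.85 in TLR3-/- livers. The groups were far apart relative to their spread, and TLR3wt replicate 3 did not stand out. The difference was 0.39 ± 0.06 (SE), or 1.31-fold, with a limma adjusted p of 0.0929 that ranged from 0.0517 to 0.37 over the alternatives.

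Cyp3a11, the main PXR-induced P450 of mouse liver, had 12.06, 11.93 and 11.91 in TLR3wt and 11.91, 11.95 and 11.92 in TLR3-/- livers (difference -0.04 ± 0.06 SE). Cyp3a13 and Cyp3a44 each differed by 0.01, with standard errors of 0.22 and 0.05. The Cyp3a13 value was 0.24 without TLR3wt replicate 3, whose 9.36 was the highest of the 6 livers. After quantile normalisation or centring, 1 of the 4 Cyp3a genes lay above 0 in place of 3.

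A probe set left out by the naming rule, because it is annotated to several Cyp3a genes including Cyp3a25, was the 1 P450 probe set that passed. It was 10.06, 10.11 and 10.06 in TLR3wt and 10.60, 10.51 and 10.57 in TLR3-/- livers, so it rose by 0.48 ± 0.05 (SE; limma adjusted p = 0.0465). No gene can be named from it. Among all 16639 probe sets 0.186% passed. The call held in 3 of 15 alternatives, with adjusted p from 0.0396 to 0.357. It was lost when a single liver was left out, whichever of the 6 it was: adjusted p was 0.0986, 0.218 and 0.122 on leaving out the first, the second or the third TLR3wt liver, and 0.139, 0.188 and 0.151 for the TLR3-/- livers.

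Of the other 4 probe sets with several P450 symbols, 1 shared by Cyp2a genes was lower in TLR3-/- livers, 10.08, 9.58 and 10.07 against 10.37, 10.69 and 10.17 (difference -0.50 ± 0.19 SE, limma adjusted p = 0.304). The remaining 3, the shared Cyp2c probe set and a pair for Cyp3a genes at -0.04 and -0.06, overlapped between groups.

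In the Cyp2j subfamily, which makes epoxides of arachidonic acid, all 3 measured genes were above 0, although Cyp2j5 was -0.02 with centred arrays. Cyp2j9 was 5.91, 6.60 and 6.14 in TLR3wt and 7.18, 6.71 and 6.86 in TLR3-/- livers, a difference of 0.70 ± 0.20 (SE; limma adjusted p = 0.219). Cyp2j6 was 7.91, 7.98 and 7.95 against 8.12, 8.08 and 8.07 (0.14 ± 0.05 SE, limma adjusted p = 0.294). The groups did not overlap in either gene. Cyp2j5, an epoxygenase of kidney and liver, did not share the pattern, with 11.20, 11.22 and 11.30 in TLR3wt and 11.27, 11.26 and 11.23 in TLR3-/- livers.

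Cyp2u1, a fatty acid hydroxylase, was 7.67, 7.62 and 7.40 in TLR3wt livers and 7.80, 8.52 and 8.42 in TLR3-/- livers. TLR3-/- replicate 1 lay just above the TLR3wt range and the other two well above it. The difference was 0.68 ± 0.20 (SE; limma adjusted p = 0.221), and 0.60 without TLR3wt replicate 3, the lowest liver.

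The remaining subfamilies showed smaller or less even differences. Cyp2e1, which oxidises ethanol and paracetamol, was 12.48, 12.40 and 12.10 in TLR3wt and 12.55, 12.63 and 12.55 in TLR3-/- livers (0.25 ± 0.11 SE, limma adjusted p = 0.353), and its difference was 0.14 without TLR3wt replicate 3. Cyp1a2, an AhR target that metabolises caffeine, was 11.38, 11.37 and 10.78 against 11.39, 11.29 and 11.34. Here TLR3wt replicate 3 alone was low, and the difference of 0.17 was -0.03 without it.

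Cyp2b10, the standard CAR target, varied between mice, with 7.13, 6.67 and 5.96 in TLR3wt and 7.31, 6.84 and 7.40 in TLR3-/- livers. Its difference of 0.60 ± 0.31 (SE; limma adjusted p = 0.435) was 0.28 without TLR3wt replicate 3. Cyp2b9, a female-predominant gene, was above the floor only in that mouse, at 5.62. All other livers of both groups stood at the floor, so no group difference can be read from it.

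Cyp2a12, a steroid hydroxylase, was 9.82, 9.74 and 9.78 in TLR3wt and 9.82, 9.94 and 9.90 in TLR3-/- livers. The naphthalene-oxidising, periportal Cyp2f2 was 11.93, 12.02 and 11.81 against 11.80, 12.01 and 12.00. Cyp2r1, a vitamin D hydroxylase, was 6.82, 6.98 and 6.88 against 7.10, 6.71 and 6.87. In these 3 genes the groups overlapped, with differences of 0.11, 0.02 and 0.00.

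Genes at the floor on all arrays included the AhR targets Cyp1a1 and Cyp1b1, Cyp2a22, Cyp2ab1, 3 Cyp2b genes, 3 Cyp2c genes, 2 Cyp2d genes, Cyp2g1, 3 Cyp2j genes, Cyp2s1, Cyp2t4, Cyp2w1 and 2 Cyp3a genes. For these, the arrays give no comparison.

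Receptors that drive P450 genes were measured as well. Of 18 measured regulators 0 passed limma's adjusted threshold, and 4 were higher and 2 lower at an unadjusted p under 0.05. For this and the lists that follow, 10.1% of all measured genes were higher and 5.56% lower at that threshold. Nr1i3, which encodes CAR, was 8.75, 8.94 and 8.74 in TLR3wt and 9.35, 9.56 and 9.29 in TLR3-/- livers (0.59 ± 0.10 SE, limma adjusted p = 0.111). Ahr was 7.46, 7.61 and 7.54 against 7.85, 8.12 and 7.77 (0.37 ± 0.10 SE, limma adjusted p = 0.203). In neither gene did the groups overlap. Nr0b2, which encodes the repressor SHP, had a difference of 0.51, and Cebpb one of -0.71. Hnf4a, which encodes HNF4, was 9.93, 10.13 and 9.99 in TLR3wt and 9.66, 9.86 and 9.74 in TLR3-/- livers, without overlap (-0.26 ± 0.08 SE, limma adjusted p = 0.242). Whether its level has a part in the P450 values was not tested. Nr1i2, which encodes PXR, overlapped between groups (-0.12 ± 0.09 SE).

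The listed targets of these receptors were counted over genes with a probe set of their own. A list of P450 genes induced through CAR or PXR had 6 measured genes: Cyp2b9, Cyp2b10, Cyp2c29, Cyp2c55, Cyp3a11 and Cyp3a13. Of these, 3 lay above and 3 below 0, 0 of them at an unadjusted p under 0.05, with a median of -0.02. Cyp2b9 was above the floor only in TLR3wt replicate 3, and Cyp3a11 (-0.04) and Cyp3a13 (0.01) lay next to 0. Cyp2c37, Cyp2c54 and Cyp2c50, with differences of 0.94, 0.65 and 0.54, are not on the list. The list is a short selection, and a gene missing from it may still be induced through these receptors. Its counts therefore do not describe CAR and PXR targets as a whole. The list's Cyp2a5 is not among the measured genes, since it shares its probe set with Cyp2a4. This is the Cyp2a probe set described above with a difference of -0.50. The AhR-induced list had 3 measured genes, with a median of 0.03, while Cyp1a1, Cyp1b1 and Ahrr were at the floor in all livers. Of the measured genes, Tiparp was at most 5.01 and Nqo1 at most 5.90 in any liver, and Cyp1a2 moved with TLR3wt replicate 3. The list can therefore show little of a difference.

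Among electron partners and haem enzymes, 0 of 15 measured genes passed limma's adjusted threshold, with 3 higher and 2 lower at an unadjusted p under 0.05 and a median of 0.07. Alas1, the rate-limiting enzyme of haem synthesis, was 11.32, 11.43 and 9.86 in TLR3wt and 9.65, 9.14 and 10.24 in TLR3-/- livers (difference -1.20 ± 0.48 SE, limma adjusted p = 0.337). TLR3wt replicate 3 lay with the TLR3-/- livers there. Hmox1, which degrades haem, was 6.70, 7.30 and 7.31 against 6.48, 6.36 and 6.48 (-0.66 ± 0.17 SE, limma adjusted p = 0.188). Cyb5a, an electron donor to several P450 enzymes, had a difference of 0.23, and Ppox, of haem synthesis, 0.16.

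Other microsomal oxidising and hydrolysing enzymes showed no common direction. Of 14 measured genes 7 lay above and 7 below 0, with a median of 0.00, and 0 passed limma's adjusted threshold, while 1 was higher and 2 were lower at an unadjusted p under 0.05. The carboxylesterase gene Ces1e had a difference of 0.50, the carbonyl reductase gene Cbr1 -0.45 and the flavin monooxygenase gene Fmo4 -0.62.

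A list of male-predominant liver P450 genes reached beyond families 1 to 3. All 5 genes lay above 0 (median 0.40), 2 of them, Cyp2u1 and Cyp7b1, at an unadjusted p under 0.05 and 0 adjusted. Cyp2u1 and Cyp2d9 are among the 32 genes described above. Cyp4a12a (0.05) and Cyp4a12b (0.11) overlapped between groups. Cyp4a12a was 10.71, 10.74 and 10.09 in TLR3wt and 10.56, 10.72 and 10.42 in TLR3-/- livers. Cyp4a12b was 10.62, 10.79 and 9.98 against 10.57, 10.67 and 10.49. In both genes TLR3wt replicates 1 and 2 stood above the TLR3-/- mean of 10.57. Their differences above 0 thus rest on TLR3wt replicate 3, the lowest liver for both. The list was not counted without that mouse. Cyp7b1, an oxysterol hydroxylase, was 10.45, 10.14 and 8.11 in TLR3wt and 10.68, 11.33 and 11.33 in TLR3-/- livers. Per mouse, the list's mean relative to the TLR3wt average was 0.34, 0.28 and -0.62 in TLR3wt and 0.37, 0.71 and 0.60 in TLR3-/- livers. TLR3wt replicate 3 was the low liver here and the high liver for acute-phase genes. Whether the acute-phase level of this mouse has a part in its P450 values was not tested. The female-predominant list had 2 measured genes, with a median of -0.10.

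Zonation genes other than the P450 genes described above were mixed. Of 12 measured pericentral genes 9 lay above 0 (median 0.14), with 1 higher, Tbx3 (0.74), and 1 lower, Cyp7a1 (-1.25), at an unadjusted p under 0.05. Relative to the TLR3wt average, the mean of the pericentral list was 0.09, 0.12 and -0.21 in the TLR3wt livers. It was 0.03, 0.12 and 0.12 in the TLR3-/- livers. TLR3wt replicate 3 alone lay below the TLR3-/- range, and the list was not counted without it. Of 9 measured periportal genes 6 lay below 0 (median -0.14), with Pigr at 0.25, Pck1 at -0.61 and Arg1 at -0.25.

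Kupffer cell markers were lower beside these values. Of 15 measured macrophage and Kupffer cell markers, 14 lay below 0 with a median of -0.80, 13 of them at an unadjusted p under 0.05 and 0 adjusted by limma, and their mean level ranged from 7.35 to 7.80 in TLR3wt and from 6.47 to 7.08 in TLR3-/- livers. Endothelial markers ranged from 7.15 to 7.41 and from 7.06 to 7.34, and stellate cell markers from 7.18 to 7.32 and from 7.13 to 7.27. Some of their genes did not overlap between groups, as was the case for 22.7% of all measured genes. Lyve1 (-0.56) and Pecam1 (-0.24) of the endothelial list and Col3a1 (-0.55) and Col1a1 (-0.49) of the stellate list were lower in TLR3-/- livers. Ecm1 (0.20) of the stellate list was higher. All of these had an unadjusted limma p under 0.05, and none passed the adjusted threshold. The general leukocyte marker Ptprc was 5.84, 6.09 and 6.27 in TLR3wt and 5.59, 5.23 and 5.29 in TLR3-/- livers (difference -0.70 ± 0.14 SE, limma adjusted p = 0.144). Of the lymphocyte markers 7 were at the floor in all livers, Cd3e and Ms4a1 among them, and of the bile duct markers 4, Krt19 and Epcam among them. The part of these other cells in the P450 values was not tested. In whole liver RNA, fewer cells of a type and less RNA per cell cannot be told apart.

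**Figure D4:**
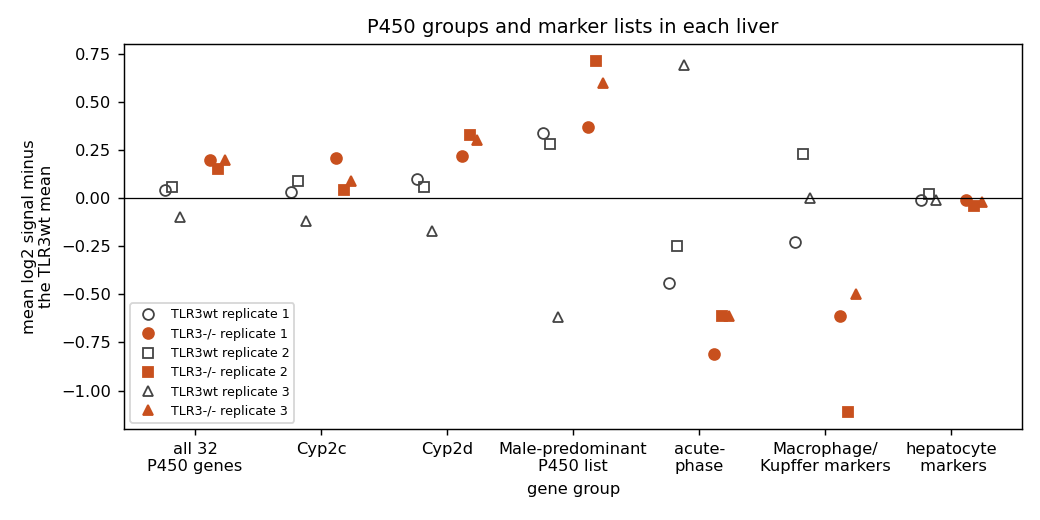
Each symbol is 1 liver, open for TLR3wt and filled for TLR3-/-; the vertical axis is the mean log2 signal of a gene group minus its TLR3wt mean. TLR3wt replicate 3 is the lowest liver for the P450 groups (-0.10 for all 32 genes, -0.12 for Cyp2c, -0.17 for Cyp2d) and the highest for acute-phase genes (0.69).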

How the data were processed

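Liver RNA of 6 mice was measured on 1 array each, and groups were taken from the sample titles. The authors deposited log2 values. The submitters' processing notes name RMA and Affymetrix Expression Console. The table holds 35557 probe sets with a floor of 5, where 57.2% to 57.6% of each array's values stood. What set the floor, and the genome build, are not given in the sources used here. The 18918 probe sets that never rose above it were dropped. The other 16639 were tested with limma 3.58.1 in R 4.3.3 (lmFit, eBayes, two-sided, Benjamini-Hochberg over all of them, threshold 0.05, group as the only term). The number of arrays limits the precision.

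The P450 genes and the gene lists were chosen with earlier results of these data known. By rule, values per mouse are given for P450 genes at an unadjusted p under 0.05 and for the brightest gene of a subfamily, and from each list at most 4 genes by smallest p are named. Outside this rule, Cyp2b9, Cyp2c55, Cyp2c70, Cyp2d9, Nr1i2, Apoa1 and Hpd were described after their values were seen. So were Hnf4a, Nqo1, Tiparp, Cyp4a12a, Cyp4a12b and the probe sets with several symbols. Promoter windows were aligned locally with Biopython 1.88. The fit was tested on simulated data. Alternatives covered the filter, the normalisation, the variance model, array weights, a replicate block, the probe sets entered and each mouse left out.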

Additional observations from a re-analysis of the deposited data

How the results depend on the processing

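No P450 gene passed in any of the 16 alternatives (0 of 32), and the lowest adjusted p of a P450 gene ranged from 0.0517 with trend and robust estimation to 0.37 with no filter. The median difference of the P450 genes stayed between 0.10 and 0.15. The count at an unadjusted p under 0.05 ranged from 8 to 13 when 1 mouse was left out, and from 10 to 15 otherwise. The share of all measured genes at that threshold was not counted in the alternatives. For all probe sets, 31 calls (23 higher, 8 lower) became 0 with no filter, 18 when a value above the floor in every liver was required (9 higher, 9 lower), 9 after quantile normalisation again (7 higher, 2 lower), 14 with centred arrays (8 higher, 6 lower), 2 with the ordinary test, 1 with 1-symbol probe sets, and 0 to 13 without 1 mouse. The Cyp2b median of 0.19 was 0.60 under both stricter filters on dim probe sets, since Cyp2b9 dropped out and 1 gene remained. The Cyp3a median of 0.01 ranged from -0.02 to 0.12 when 1 mouse was left out. Differences near 0 changed sign: with centred arrays Cyp2f2 and Cyp2j5 were -0.02 each. Without TLR3wt replicate 1, Cyp2j5 was -0.01 and Cyp3a11 0.00. Without TLR3wt replicate 2, Cyp2r1 was 0.04. Without TLR3wt replicate 3, Cyp1a2 was -0.03 and Cyp2f2 -0.04. Without TLR3-/- replicates 2 and 3, Cyp2f2 was -0.02 in each and Cyp2r1 0.09 and 0.01. When 1 mouse was left out, Cyp1a2 ranged from -0.03 to 0.27, Cyp2r1 from -0.11 to 0.09 and Cyp3a11 from -0.07 to 0.00. The cause of these changes was not tested. With the replicate block, 4 probe sets (4 higher, 0 lower) and 0 P450 genes passed, and 10 P450 genes had an unadjusted p under 0.05. Same-numbered livers correlated at 0.048, -0.012 and -0.063 in their deviations, and differently numbered livers at -0.12 to 0.14. These values show no pairing by number, but with so few livers they cannot exclude one. Taking the mean of a gene's probe sets changed nothing, since each P450 gene had 1. Genes near the floor can show only part of a difference.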
